A study of Mus musculus with 13 samples.

Results

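The genes described here are 10 members of the S100 family out of 23951 gene symbols measured by RNA sequencing of whole mouse mammary gland: S100a1, S100a4, S100a6, S100a8, S100a9, S100a10, S100a11, S100a13, S100a14 and S100a16. They were taken by symbol, and the family was singled out because S100a4 had been noted at a higher level in knockouts at involution. Of the 7 other S100 genes with a row, S100a2, S100a3, S100a5, S100a7a and S100g stayed under 1 FPKM in all 13 libraries. S100b and S100z reached 2.75 and 9.23 FPKM at most. FPKM scale the fragments of a gene to its transcript's length and to the library, and on this basis levels of different genes are set beside each other. How exactly this scaling holds for the S100 genes was not tested.

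The S100 proteins are small calcium-binding proteins of the EF-hand type, which mostly act as dimers inside the cell by binding partner proteins and, in part, as secreted signals outside it. S100a8 and S100a9 form calprotectin, an abundant protein of neutrophils and monocytes that binds metal ions and signals through TLR4 and RAGE. S100a4 is known from fibroblasts, macrophages and lymphocytes, whereas S100a14 and S100a16 are known mainly from epithelia. In mammary involution, the regression of the gland after suckling ends, milk-secreting epithelium dies and stroma and phagocytes take its place.

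The glands came from females with a conditional knockout of Jak1, the gene of a tyrosine kinase that passes on signals of interleukin 6 and interferon class cytokines, or from wildtype control mice. At day 2 of involution there were 4 knockout libraries (M43196, M43767, M44176 and M44440, named here by mouse number) and 3 control libraries (M44448, M43768 and M43914). At day 7 of lactation there were 3 knockout libraries (M44174, M42734 and M43767) and 3 control libraries (M42186, M43768 and M44175). The strain, the age, the deleted part of Jak1 and the Cre line or cell type in which it is deleted are not given in the labels. Each library carries its own mouse number within a stage, and M43767 and M43768 stand at both stages. Whether a number at both stages is the same animal is not given, so the stages may share mice.

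Jak1 itself ranged from 17.3 to 26.3 FPKM in knockouts and from 24.0 to 24.6 FPKM in controls at involution, and from 9.51 to 11.2 FPKM in knockouts and from 6.18 to 14.2 FPKM in controls at lactation. A value over the whole gene in whole tissue does not check the labels, so the groups are named as labelled. Genes of other tissues were high in some libraries. Skin genes were high in knockout M43767 at involution, and T cell genes in control M43768 at lactation. Camp and Ngp, among the genes of neutrophil granules, were high in knockout M43196. That library was the shallowest of its table (depth 0.486 relative to the table's mean, against up to 1.503). It also had the highest summed FPKM at involution (1367600 against 590440 to 958500). At lactation control M44175 stood apart, with a summed FPKM of 871630 against 312980 to 421590 in the other 5 libraries. Muscle genes summed to between 1.83 and 5439 FPKM over the 13 libraries. Luminal epithelial markers such as Krt8 and Epcam were present in every library, with sums over 10 genes of 1537 to 2629 FPKM in knockouts and 1648 to 2210 FPKM in controls at involution.

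All 10 members lie on mouse chromosome 3. In RefSeq's order S100a1, S100a13, S100a14 and S100a16 come first, S100a4 and S100a6 follow among the scarce S100a3, S100a2, S100a5 and S100a7a, then S100a8 and S100a9, and farther on S100a11 and S100a10. S100a1 and S100a13 lie head to head and their gene models overlap by 98 bases at their starts, so without strand the reads of that stretch cannot be told apart. RefSeq promoter windows (GRCm38.p6, 250 bases before the gene's start to 50 after it, 9 windows) were found for 8 members, all but S100a10 and S100a14. The sequences below are shown because S100a4, S100a8 and S100a9 are the members with the letters TATAAA in this window, and because S100a11 had the highest level at involution. Capitals mark TATAAA in the first 3 sequences, and TGACTCA or its reverse complement, the letters of the AP-1 motif, in the last. S100a4 is read from chr3:90603620-90603769 on the plus strand, S100a8 from chr3:90668921-90669070 on the plus strand, S100a9 from chr3:90695692-90695841 on the minus strand and S100a11 from chr3:93520346-93520495 on the plus strand.
S100a4: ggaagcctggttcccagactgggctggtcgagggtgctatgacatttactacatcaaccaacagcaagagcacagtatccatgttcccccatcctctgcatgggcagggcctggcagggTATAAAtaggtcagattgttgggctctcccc
S100a8: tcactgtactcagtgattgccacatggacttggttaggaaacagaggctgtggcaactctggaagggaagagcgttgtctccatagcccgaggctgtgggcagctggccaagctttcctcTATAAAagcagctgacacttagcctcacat
S100a9: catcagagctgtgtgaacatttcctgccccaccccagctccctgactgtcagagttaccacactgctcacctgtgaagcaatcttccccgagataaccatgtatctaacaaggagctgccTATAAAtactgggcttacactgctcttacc
S100a11: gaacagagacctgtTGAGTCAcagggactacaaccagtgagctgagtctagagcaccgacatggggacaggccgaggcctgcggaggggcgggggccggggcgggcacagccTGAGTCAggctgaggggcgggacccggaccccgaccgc

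TATAAA begins 31 bases before the annotated start of S100a4 and 30 bases before that of S100a8, and at base 1 of the annotated S100a9 transcript. Searched on both strands, these letters occur in 13.6% of all 32851 windows, and TGACTCA, found in S100a11 at 136 and 38 bases before the start, in 5.20%. TTCNNNGAA, the letters of the STAT motif, occur in 8.30% of all windows and in 0 of the 9 windows of the members. These letters describe the windows and say nothing of what binds there.

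At day 2 of involution S100a11, a partner of annexin A1, was the most abundant member, at 1319, 813, 828 and 882 FPKM in knockouts and at 681, 1132 and 1149 FPKM in controls. Its groups overlapped, and the log2 difference (knockout minus control) was -0.0042 ± 0.28 (SE). S100a1, known from heart and skeletal muscle where it regulates calcium cycling, stood at 489, 297, 499.6 and 293 FPKM in knockouts and at 263, 419.7 and 525 FPKM in controls. Again the groups overlapped throughout, with a log2 difference of 0.01 ± 0.31. The 7 muscle markers summed to 6.60, 743, 5439 and 88.1 FPKM in the same knockouts and to 1420.5, 106 and 78.5 FPKM in the same controls, and the part of muscle in the S100a1 values was not tested.

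The order of the members differed between the groups. By mean level in knockouts, S100a11 was followed by S100a6 (428 ± 114.5 FPKM, SD, n = 4), S100a1 (394 ± 115 FPKM), S100a10 (286 ± 60.4 FPKM), S100a13 (156 ± 53.8 FPKM), S100a4 (117 ± 24.1 FPKM), S100a16 (105 ± 25.4 FPKM), S100a8 (80.0 ± 91.7 FPKM), S100a9 (52.2 ± 86.96 FPKM) and S100a14 (14.4 ± 17.7 FPKM). All neighbours in this order overlapped in range, except S100a11, which lay above S100a6. In controls (n = 3) S100a1 came before S100a6. By mean level S100a8 (124 ± 67.8 FPKM) stood in the fifth place there, narrowly above S100a13 (123 ± 19.6 FPKM) and above S100a16 and S100a4. In control M44448, S100a8 at 48.97 FPKM lay below S100a13 (105 FPKM) and S100a16 (85.6 FPKM). The neighbours S100a13 and S100a16, S100a16 and S100a4, and S100a9 and S100a14 were apart in controls, as were S100a11 and S100a1.

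**Figure D1:**
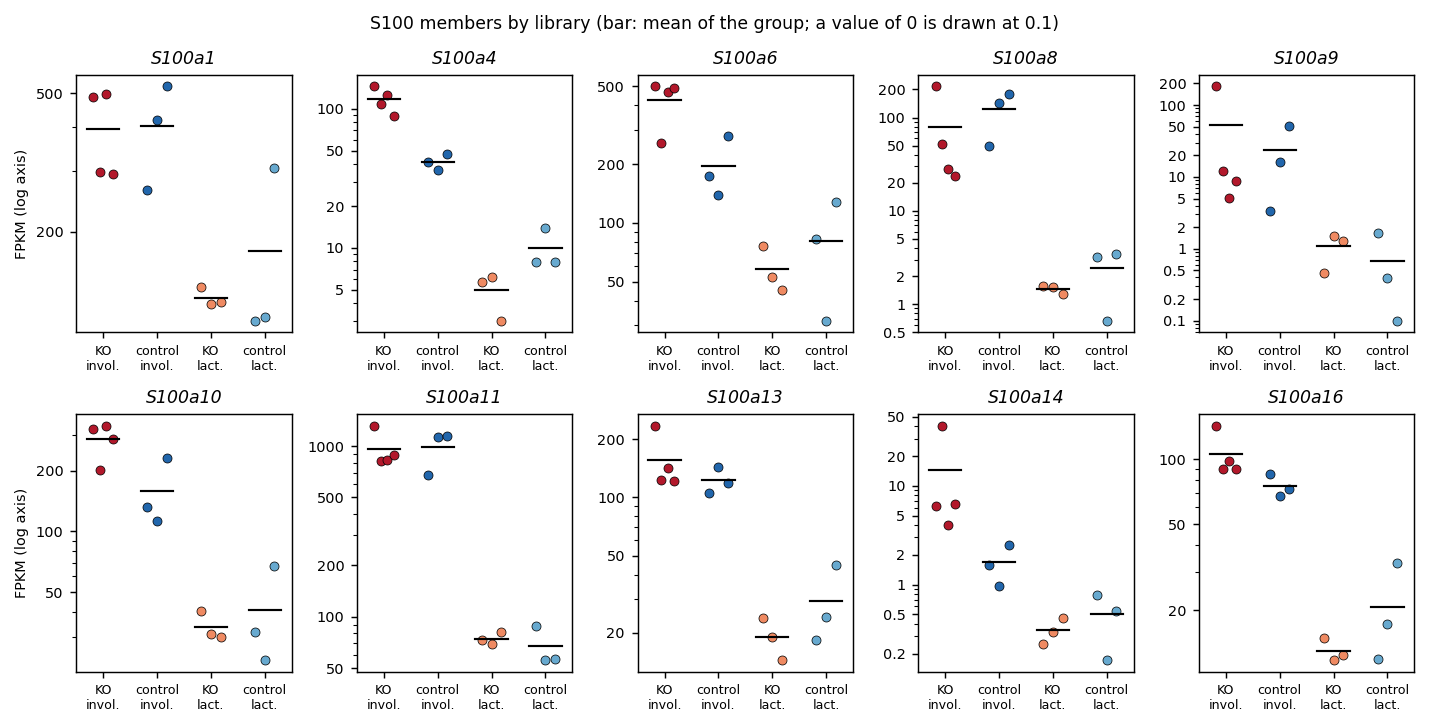
FPKM of each of the 10 members (one panel each, log axis with its own range) in every library, for knockout and control glands at day 2 of involution and at day 7 of lactation. Points are libraries and bars are group means; S100a4 shows all 4 involution knockouts (89.3 to 146 FPKM) above all 3 controls (36.3 to 47.5 FPKM), and all 3 lactation knockouts (3.00 to 6.15 FPKM) below all 3 controls (7.92 to 14.01 FPKM).

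S100a4, which binds non-muscle myosin and is also called fibroblast-specific protein, stood at 146, 108, 126 and 89.3 FPKM in knockouts M43196, M43767, M44176 and M44440, against 41.3, 36.3 and 47.5 FPKM in controls M44448, M43768 and M43914. Every knockout lay above every control, with a log2 difference of 1.48 ± 0.21. This is the value that chose the family, so it is given without a test. In whole tissue, a difference in the number of cells of a type and a difference in RNA per cell cannot be told apart. The 10 fibroblast markers (Col1a1, Col1a2, Col3a1, Pdgfra, Pdgfrb, Dcn, Lum, Fbln1, Thy1 and Dpt) summed to between 357 and 918 FPKM in knockouts and between 214 and 490 FPKM in controls, with overlap. Taken singly, 10 of 10 were shifted towards knockouts, as S100a4 was (median 0.79 log2 units). In every knockout 2 of them lay above all controls, and 0 passed the threshold with limma. The same shift was found for 10 of 10 adipocyte markers (median 0.59) and 9 of 12 monocyte and macrophage markers (median 0.37). Among luminal markers it was found for 4 of 10. The knockouts with the highest and lowest S100a4, M43196 and M44440, also had the highest and lowest fibroblast sum. The same held for their sums of monocyte and macrophage markers (584 and 244 FPKM). These 2 knockouts also had the lowest and highest relative depth (0.486 and 1.503). M43767 and M44440 lay below control M44448 in fibroblast markers (467 and 357 against 490 FPKM). Both lay above it in S100a4 (108 and 89.3 against 41.3 FPKM). The 12 monocyte and macrophage markers with a row, another known source of S100a4, summed to 244 to 584 FPKM in knockouts and to 292 to 382 FPKM in controls. The part of these cell types in the S100a4 values was not tested.

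S100a6 (calcyclin) and S100a10, both known from stroma as well as epithelium, showed a like tendency with overlap between the groups. S100a6 stood at 501, 258, 467 and 488 FPKM in knockouts and at 174, 138 and 278 FPKM in controls. Knockout M43767 was the lowest of its group and lay below control M43914, and the log2 difference was 1.16 ± 0.32. S100a10, also called p11, a partner of annexin A2 that does not itself bind calcium, stood at 323, 201, 335 and 287 FPKM in knockouts and at 132, 113 and 232 FPKM in controls. Here too M43767 lay under control M43914, and the log2 difference was 0.91 ± 0.30.

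The partner of S100a10, Anxa2, stood at 177, 135, 184 and 129 FPKM in knockouts and at 85.5, 57.5 and 114 FPKM in controls, with no overlap (log2 difference 0.92 ± 0.26, adjusted p = 0.482 with limma). The ratio of S100a10 to Anxa2 ran from 1.49 to 2.22 in knockouts and from 1.55 to 2.04 in controls, so both genes kept a similar proportion in the 7 involution libraries. Of 15 binding partners and receptors of S100 proteins, 14 were tested at involution and 0 passed the threshold in either direction with limma (adjusted p from 0.482). Across all 12509 genes tested, 9 passed, which is 0.0719% (0.016% higher and 0.056% lower in knockouts). Of the partners, Anxa2 and Anxa6 (log2 difference 0.65 ± 0.21) lay above all controls in every knockout. Over all genes tested, 2.67% did so. Anxa1, the partner of S100a11, stood at 135 FPKM on average in knockouts and at 147 FPKM in controls (log2 difference -0.06 ± 0.27, adjusted p = 0.998). Of the receptors of calprotectin, Tlr4 averaged 10.7 FPKM in knockouts and 15.1 FPKM in controls (log2 difference -0.36 ± 0.26, adjusted p = 0.940), and Ager, which encodes RAGE, averaged 2.36 FPKM in knockouts and 1.67 FPKM in controls (log2 difference 0.17 ± 0.42, adjusted p = 0.998).

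S100a8 and S100a9 did not show the pattern of S100a4. S100a8 stood at 216, 52.2, 28.2 and 23.4 FPKM in knockouts M43196, M43767, M44176 and M44440, against 48.97, 143 and 180.4 FPKM in controls M44448, M43768 and M43914. Knockout M43196 held the highest value of the stage, M43767 lay just above the lowest control and the other 2 knockouts below it, with a log2 difference of -1.005 ± 0.77. S100a9 stood at 183, 12.2, 5.11 and 8.84 FPKM in knockouts and at 3.41, 16.1 and 51.3 FPKM in controls. M43196 stood far above all others, and the log2 difference was 0.33 ± 1.24. Without M43196 the log2 difference of S100a8 was -1.68 ± 0.52, and that of S100a9 turned to -0.74 ± 0.83.

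Knockout M43196 was also the only involution library with clear levels of Camp and Ngp, granule genes of immature neutrophils. Camp, cathelicidin, stood at 31.5 FPKM there and Ngp at 34.5 FPKM. In the other 6 libraries Camp did not exceed 0.554 FPKM and Ngp did not exceed 0.915 FPKM. The neutrophil markers Elane and Mpo were low throughout and were not highest in M43196. Elane stood at 0.428 FPKM there and reached 0.557 FPKM in M43767. Mpo stood at 0.0655 FPKM there and reached 0.239 FPKM in M44176. Of the 11 neutrophil markers with a row, 7 reached 1 FPKM in M43196 and 1 to 4 in the other knockouts and the controls. Cxcr2, a chemokine receptor of mature neutrophils, was at 1.57 FPKM in M43196 and between 0.614 and 1.90 FPKM elsewhere at this stage. Summed, the list is nearly all Ltf, the milk protein lactoferrin, and ran from 3359 to 5534 FPKM in knockouts and from 5139 to 6969 FPKM in controls. Their part in the S100a8 and S100a9 values was not tested.

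The proportion of both calprotectin genes differed between libraries. The ratio of S100a8 to S100a9 was 1.18 in M43196, 4.26, 5.51 and 2.65 in knockouts M43767, M44176 and M44440, and 14.4, 8.93 and 3.52 in controls M44448, M43768 and M43914. Within involution the library with high Camp and Ngp had the ratio nearest to 1, and control M44448 carried 14.4 times as much S100a8 as S100a9. Controls M43768 and M43914 reached 143 and 180.4 FPKM of S100a8 with Camp listed at 0 in M43768 and at 0.554 FPKM in M43914.

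**Figure D2:**
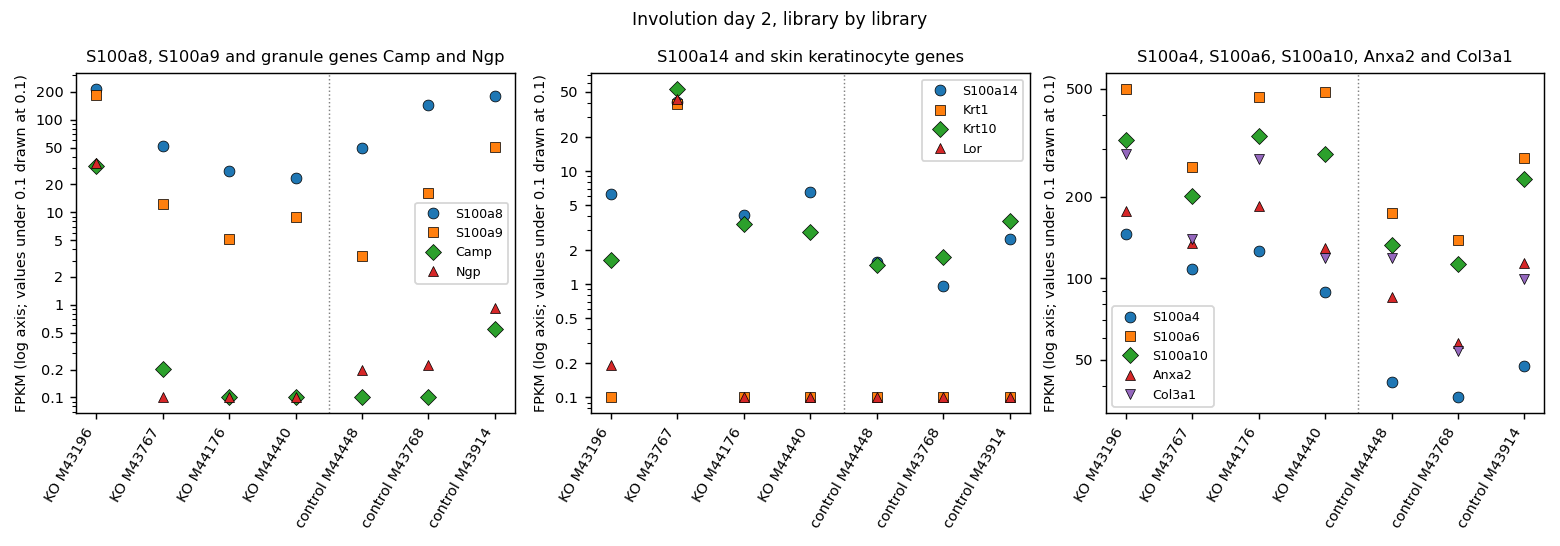
FPKM (log axis) of selected members and marker genes in each involution library, knockouts left of the dotted line and controls right of it; values under 0.1 are drawn at 0.1. Left, knockout M43196 alone holds Camp and Ngp (31.5 and 34.5 FPKM) and has the highest S100a8 and S100a9. Middle, knockout M43767 alone holds Krt1 and Lor (38.8 and 43.5 FPKM) with S100a14 at 40.9 FPKM. Right, S100a4, Anxa2 and Col3a1 separate the groups while S100a6 and S100a10 overlap. Col3a1 separates them narrowly, with the lowest knockout at 119.1 FPKM and the highest control at 118.6 FPKM.

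S100a14, an S100 protein of epithelial cells, was the least abundant member, at 6.25, 40.9, 4.06 and 6.58 FPKM in knockouts M43196, M43767, M44176 and M44440, against 1.57, 0.962 and 2.50 FPKM in controls M44448, M43768 and M43914. All knockouts lay above all controls, with a log2 difference of 2.01 ± 0.67. M43767, far above the rest, was also the library with skin genes: Krt1, Krt10 and Lor, genes of the outer layers of the epidermis, stood at 38.8, 53.5 and 43.5 FPKM there. In the other 6 involution libraries Krt1 and Lor did not exceed 0.195 FPKM and Krt10 ran from 1.48 to 3.59 FPKM. All 8 skin markers reached 1 FPKM in M43767, and 2 or 3 of them in the other libraries. Without M43767 the knockouts still lay at 4.06 to 6.58 FPKM, above the highest control at 2.50 FPKM, with a log2 difference of 1.34. The part of skin in the S100a14 values of M43767 was not tested. Luminal markers had a median log2 difference of -0.03 over 10 genes, and basal markers of 0.40 over 9 genes, with 4 of 10 luminal and 8 of 9 basal markers positive and 0 past the threshold in either list. The part of epithelial cells in the S100a14 and S100a16 values was not tested.

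S100a16 stood at 143, 89.6, 98.1 and 90.3 FPKM in knockouts and at 85.6, 67.3 and 72.8 FPKM in controls. The groups did not overlap, although knockouts M43767 and M44440 lay within 5 FPKM of control M44448, and the log2 difference was 0.48 ± 0.21. S100a13, which takes part in the release of the growth factor FGF1, stood at 235, 124, 142 and 122 FPKM in knockouts and at 105, 144 and 119 FPKM in controls. Its groups overlapped (log2 difference 0.32 ± 0.26), and M43196 again held the highest value.

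Counted over the family, 8 of the 10 members had a positive log2 difference at involution, with a median of 0.41, against a median of 0.01 and 51.8% positive over all 12509 genes tested. S100a4, S100a14 and S100a16 lay above all controls in every knockout, and no member lay below. Over all genes tested, 2.67% lay above and 4.42% below all controls. Because the family was chosen on this contrast, nothing is read from these shares. All 10 members passed the filter of at least 1 FPKM in at least 3 libraries, S100a14 mainly through the knockouts.

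**Figure D3:**
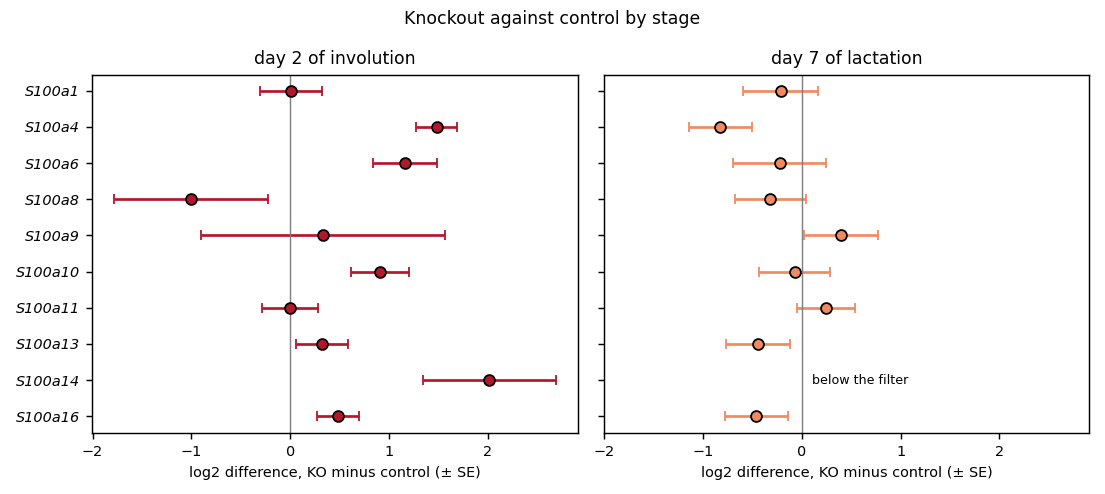
Log2 difference of knockout minus control (points, bars are SE) of the 10 members at day 2 of involution (left) and day 7 of lactation (right), on a common axis in log2 units. S100a4 lies at 1.48 at involution and at -0.83 at lactation, S100a6 and S100a10 at 1.16 and 0.91 at involution and at -0.22 and -0.07 at lactation, and S100a14 was below the filter at lactation.

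At day 7 of lactation, a contrast that did not choose the family, S100a4 had the opposite order. It stood at 5.70, 6.15 and 3.00 FPKM in knockouts M44174, M42734 and M43767, against 7.92, 14.01 and 7.94 FPKM in controls M42186, M43768 and M44175. Every knockout lay below every control, with a log2 difference of -0.83 ± 0.32, which did not pass (adjusted p = 0.998 with limma). The highest control, M43768, was the library with T cell genes, whose 6 markers with a row summed to 35.8 FPKM there and to 0.680 to 2.76 FPKM in the other 5 lactation libraries. Without it the log2 difference was -0.56 ± 0.31 (adjusted p = 0.925), and the remaining groups still did not overlap. Fibroblast markers summed to 143 to 156 FPKM in knockouts and 58.8 to 146 FPKM in controls, with overlap. Taken singly, 3 of these 10 lay above all controls in every knockout. A higher mean in knockouts, the reverse of S100a4, was found for 9 of the 10. Of the 9 fibroblast markers tested, 8 were shifted towards knockouts (median of the 9, 0.69 log2 units). Endothelial markers separated the groups, with a sum of 29.0 to 39.2 FPKM in knockouts and 16.4 to 22.3 FPKM in controls, and 6 of 6 lay above all controls in every knockout. Of 10 adipocyte markers, 4 lay above all controls in every knockout and 10 had a higher mean in knockouts, with sums of 1493 to 2275 FPKM in knockouts and 823 to 2779 FPKM in controls. Over all genes tested at lactation, 2.89% lay above all controls in every knockout. Limma called 0 markers of these 3 lists. The part of these cell types in the lactation values was not tested.

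None of the 9 members tested at lactation passed the threshold with limma. S100a4 was the one member with an unadjusted p under 0.05. Its size did not stand out under every alternative: with a pseudocount of 0.1 the log2 difference was -0.94 for S100a4 and 1.29 for S100a9, and without control M43768 it was -0.56 for S100a4, -0.77 for S100a8 and -0.76 for S100a6. Across all 9560 genes tested 1 passed (0.0105%), and 228 had an unadjusted p under 0.05. Lying below all controls in every knockout, as S100a4 did, was found in 3.17% of all genes, and lying above in 2.89%. The median log2 difference of the 9 members was -0.22, against 0.01 over all genes tested. Partners and receptors gave 0 calls out of 13 tested, with a median of 0.24.

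The most abundant member at lactation was S100a1, at 139, 124 and 126 FPKM in knockouts and at 111, 114 and 305 FPKM in controls. Control M44175 alone was high, and without it the log2 difference of -0.21 ± 0.38 turned to 0.21 ± 0.19. S100a6, S100a10, S100a13 and S100a16 too were highest in M44175, at 128, 67.6, 45.0 and 33.2 FPKM. In the knockouts these 4 genes ran from 45.5 to 76.1, from 29.8 to 40.2, from 14.5 to 23.9 and from 11.8 to 14.8 FPKM. In the other controls they lay at 82.5 and 31.6, at 31.6 and 23.0, at 18.3 and 24.0 and at 11.9 and 17.2 FPKM. Their groups overlapped, and without M44175 the log2 differences of S100a6 and S100a10 changed sign, to 0.16 ± 0.42 and 0.31 ± 0.23.

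S100a11 was even between groups at lactation, at 72.9, 69.7 and 81.3 FPKM in knockouts and at 88.5, 55.9 and 56.8 FPKM in controls (log2 difference 0.25 ± 0.29, adjusted p = 0.998 with limma). M44175, high in 5 other members, was not high in S100a11. Calprotectin transcripts were scarce. S100a8 stood at 1.56, 1.52 and 1.28 FPKM in knockouts and at 3.22, 0.666 and 3.46 FPKM in controls, and S100a9 did not exceed 1.51 FPKM in knockouts or 1.64 FPKM in controls, with control M44175 listed at 0. Their ratio at these low levels was 3.37, 1.01 and 1.01 in knockouts M44174, M42734 and M43767, and 1.97 and 1.69 in controls M42186 and M43768. S100a14 ran from 0.251 to 0.460 FPKM in knockouts and from 0.172 to 0.792 FPKM in controls, under the filter.

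Both stages were deposited in separate tables that may have been normalized separately, so their levels are set side by side without a test. Most genes had higher FPKM at involution than at lactation: the median ratio of group means over 9464 genes was 2.58 in knockouts and 2.43 in controls, and 64.4% of genes lay higher in all 7 involution libraries than in all 6 lactation libraries (1.5% lay lower). Of the 9 members that passed the filter at both stages, 8 did so, all but S100a1. Within knockouts the share of genes was 80.2% and 9 of 9 members lay higher at involution, and within controls it was 72.0% and 8 of 9.

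Relative to the median gene, the stage ratios of the calprotectin genes were wide in both genotypes, but in knockouts they rested largely on M43196. S100a8 was 55.0 times as high at involution as at lactation in knockouts and 50.8 times in controls, which is 21.4 times the ratio of the median gene in knockouts and 20.9 times in controls. For S100a9 the ratios were 48.4 in knockouts and 34.8 in controls. Without M43196, an alternative chosen after seeing the data, the knockout ratio was 23.8 for S100a8 and 8.10 for S100a9, and the S100a9 ratio lay below the 21.8 of S100a4 and the 11.3 of S100a11 in the same libraries. S100a11 had a ratio of 12.9 in knockouts and 14.7 in controls. S100a1 stayed near the median gene, at 3.05 in knockouts and 2.28 in controls.

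S100a4 had a stage ratio of 23.7 in knockouts (9.20 times the median gene) and 4.19 in controls (1.72 times). S100a14, under the filter at lactation, had group means 41.7 times as high at involution in knockouts, where M43767 supplied most of the mean, and 3.36 times in controls. The ratios of S100a6 were 7.37 in knockouts and 2.44 in controls, and those of S100a10 were 8.51 in knockouts and 3.91 in controls. S100a13 had ratios of 8.13 in knockouts and 4.22 in controls, and S100a16 of 8.08 in knockouts and 3.62 in controls. These ratios hold the involution contrast that chose the family and were not tested. In M43767, a knockout number present at both stages, S100a4 stood at 108 FPKM at involution and 3.00 FPKM at lactation. In M43768, the control number present at both, it stood at 36.3 FPKM at involution and 14.01 FPKM at lactation.

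Genes with a profile like that of S100a4 were sought as those with the smallest root mean square difference of log2 values over the 13 libraries, each profile centred within its table. Among 9432 genes the nearest were Tnnt2 (0.42 log2 units), Crip1 (0.42), Emp3 (0.43), Egln3 (0.44) and Thy1 (0.45), where the median gene lay at 0.74. Tnnt2 ran only from 0.633 to 3.32 FPKM over the 13 libraries, levels at which log2(FPKM + 1) understates changes. Crip1, a small LIM domain protein, stood at 456, 299.9, 402 and 245 FPKM in involution knockouts and at 200.5, 144 and 150.5 FPKM in involution controls. At lactation Crip1 ran from 23.6 to 27.8 FPKM in knockouts and from 29.4 to 42.3 FPKM in controls. It thus had the order of S100a4 at both stages. Crip1 was chosen for its likeness to S100a4 over these same libraries, so nothing further is read from the shared order. Thy1, a surface protein of fibroblasts and T cells, stood at 35.4, 19.2, 42.8 and 22.9 FPKM in involution knockouts and at 18.6, 7.76 and 10.6 FPKM in involution controls. At lactation Thy1 stood at 3.39, 4.61 and 3.36 FPKM in knockouts and at 5.82, 7.44 and 2.04 FPKM in controls, where the groups overlapped and control M44175 lay below every knockout. For S100a8 the nearest genes were Aqp9 (0.61 log2 units), Hpgd (0.62), Gm10012 (0.63), Fabp3 (0.64) and Dcxr (0.65), where the median gene lay at 0.96. Aqp9 too was low, at 0.638 to 4.63 FPKM. Centring within each table leaves out the difference between stages. Fabp3 stood at 211 to 1139 FPKM at involution and at 6465 to 13438 FPKM at lactation, the reverse of S100a8. S100a8 itself varied more about its table means (0.92 log2 units) than S100a4 did (0.68). S100a9 was not among the 5.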

How the data were processed

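Total RNA of flash-frozen mammary gland was made into TruSeq libraries and sequenced on a HiSeq2000 instrument, per the labels' protocols. The deposited FPKM tables, 1 per stage, were made by the authors with CASAVA, cutadapt and TopHat on mm9, per the submitters' processing notes. For the tool versions, the FPKM program and the annotation: not given in the sources used here. An entry of 0 can be a missing estimate, and 4649 symbols were listed at 0 in all 13 libraries.

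Each library was rescaled within its table by median of ratios (factors 0.954 to 1.12 at lactation, 0.980 to 1.02 at involution), and values were taken to log2(FPKM + 1), which understates changes of low genes. A minimum of 1 FPKM in 3 or more libraries was required before testing with limma 3.58.1 (R 4.3.3, trend, two-sided, Benjamini-Hochberg over all genes tested, threshold 0.05, tested on simulated data). Members were given no p at involution, because that contrast chose them. Read counts are not given, so no counting intervals are printed. Relative depth within a table, from the steps of low values, ran from 0.486 to 1.503 at involution and from 0.722 to 1.28 at lactation. The genes named are the members, the other S100 genes, 15 partners, 96 markers of 11 cell types and the 5 genes nearest to S100a4 and to S100a8. Members and lists were chosen with earlier results of these data known. S100a11 may share reads with its pseudogene S100a11-ps.

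Alternatives were quantile normalization, scaling to the total outside milk proteins and short RNAs, a pseudocount of 0.1, no filter, robust empirical Bayes, array weights and leaving out each library.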

Additional observations from a re-analysis of the deposited data

Results flagged for a closer look

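S100a4 had opposite signs at the stages, with log2 differences of 1.48 at involution and -0.83 at lactation and the groups apart at both. The difference between the stages was not tested, because the involution value chose the family.

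Among the 4 involution knockouts, 6 of the 10 members had 1 library far from the other 3, where chance would mark about 1 in 20 groups. Over all 12509 genes tested at involution the share with a library apart among these knockouts was 5.8%, with M43196 high in 1.1% and M43767 high in 0.568% and low in 0.48%. M43196 was the high library for 4 of them, with S100a8 at 216 FPKM (next 52.2), S100a9 at 183 FPKM (next 12.2), S100a11 at 1319 FPKM (next 882) and S100a16 at 143 FPKM (next 98.1). M43767 was the library apart for the other 2, high in S100a14 at 40.9 FPKM (next 6.58) and low in S100a6 at 258 FPKM (next 467).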

How the results depend on the processing

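S100a4, S100a6, S100a10, S100a13, S100a14 and S100a16 kept a positive log2 difference at involution under all 11 alternatives (S100a4 from 1.37 to 1.61), and S100a8 a negative one. At lactation S100a4 stayed negative under all 11 (-1.35 to -0.56, adjusted p 0.0876 with array weights to 1.00), and 0 members passed under any. The number of genes past the threshold at involution was 9, against 14 with robust empirical Bayes, 20 with array weights and 2 to 9 with 1 library left out (2 without control M44448 or M43768, 3 without M43914). At lactation it was 1, against 2 with total scaling or a pseudocount of 0.1, 9 with array weights and 0 to 3 with 1 library left out (0 without any 1 knockout, 2 without control M42186, 3 without M44175).

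Sign changes at lactation were those of S100a1 (0.012 with total scaling, 0.16 with array weights, -0.43 to 0.21 with 1 library left out), S100a6 (0.00055 with total scaling, 0.53 with array weights, -0.76 to 0.16), S100a10 (0.061 with quantile normalization, 0.15 with total scaling, 0.39 with array weights, -0.38 to 0.31) and S100a8 (0.37 with array weights). At involution they were those of S100a1 (-0.040 with array weights, -0.25 to 0.21 with 1 library left out), S100a11 (0.016 with quantile normalization, 0.0038 with total scaling, -0.23 to 0.11) and S100a9 (-0.74 to 1.19 with 1 library left out). The cause was not tested. No paired analysis was possible because knockouts and controls of a stage share no mouse number. Depth is known only relative to the table, and members under 1 FPKM rest on few reads.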
